A study of Mus musculus with 11 samples.

Results

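Imprinted genes were examined in newborn thalamic neurons, as 42 mouse genes with known parent-of-origin expression out of the 54752 genes in each count table. They were selected by symbol on their known imprinting status, with earlier results of the same counts in view, so the differences given here are a description of these libraries and no independent support for a pattern. The study compared neurons of the sensory relay nuclei of the thalamus at postnatal day 0. Vision is relayed by the dorsolateral geniculate nucleus (dLG, n = 4 libraries), touch from the face by the ventral posteromedial nucleus (VPM, n = 4) and hearing by the ventral medial geniculate nucleus (MGv, n = 3). All libraries came from outbred ICR/CD-1 mice of the genotype Gbx2CreER-IRES-EGFP/+::R26lsl-tdTomato/+, in which an inducible Cre made from the Gbx2 gene turns on the red protein tdTomato in cells of the thalamic lineage. The Cre was induced with tamoxifen in the embryos. Tissue of 4 brains was pooled for every library when each nucleus was dissected, and fluorescent cells were then sorted by FACS. Every library carried these alleles, so the comparisons are between nuclei only. The reads were not split by parental allele, so each value is the total from both copies of a gene, and whether a gene was imprinted in these neurons was not measured.

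Imprinted genes are read mainly from the copy inherited from a single parent, because methylation laid down in the egg or the sperm marks the parental copies differently. They lie in clusters that share a control region, and a cluster often pairs protein-coding genes with a long non-coding RNA. Many of them act on growth, with Igf2 and Dlk1 among the paternally expressed genes that promote or shape it and Cdkn1c and Igf2r among the maternally expressed genes that restrain it. Several are read from a different copy in neurons than in other cells, such as Grb10, or are imprinted mainly in neurons, such as Ube3a. By this general knowledge, 23 of the 42 genes are paternally expressed, 11 maternally expressed and 8 dependent on the tissue, and they belong to 17 loci. These classes are not specific to neurons. Igf2r is counted as maternally expressed, although its paternal copy is silenced by the RNA Airn outside neurons.

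Total counts per library ran from 10175653 to 23559130, and the 3 MGv libraries, at 10.2 to 13.2 M counts, were shallower than the others, at 15.9 to 23.6 M. A level of 3 counts, taken as the smallest that could be shown, was 0.127 to 0.295 counts-per-million (CPM). The 42 imprinted genes held between 1.08% and 1.48% of the counts of a library. The labelled cell type was borne out by its markers, since the 9 pan-neuronal genes summed to 10054 to 13375 CPM and the 8 thalamic genes, among them Gbx2 and Lef1, to 2619 to 3969 CPM. Markers of cells in which imprinted growth genes are often abundant were low in every library, at up to 1.58 CPM summed over 5 choroid plexus and ependymal genes, 3.94 CPM over 6 meningeal genes and 8.06 CPM over 7 endothelial and mural genes. The 7 astrocyte genes summed to 57.0 to 192 CPM, with Fabp7 as the highest gene over all libraries. Libraries of a nucleus did not all look alike. The heat shock gene Hspa8, singled out after its values were seen, was at 3.05 CPM in replicate 2 of dLG, 4.09 CPM in replicate 3 of VPM and 5.56 CPM in replicate 1 of MGv, against 159 to 581 CPM in the other libraries, and calls of imprinted genes that were lost or gained without this trio are named at each gene.

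Stretches in front of the genes on which the account turns most are shown for their CG dinucleotides, the sites at which imprinted copies are methylated. They were read from RefSeq promoter windows on GRCm38.p6 and kept only where no annotated exon lies. The capitals mark every CG. The short stretch between Peg3 and Usp29 is the whole gap between these genes, which start back to back at chr7:6730432-6730577 (plus strand). The Dlk1 stretch ends at the start of the gene at chr12:109452573-109452822 (plus strand), and the Dio3 stretch does likewise at chr12:110278980-110279067 (plus strand). The Mest stretch lies before a RefSeq start inside the gene as GENCODE draws it, at chr6:30737800-30738049 (plus strand).

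Peg3 to Usp29: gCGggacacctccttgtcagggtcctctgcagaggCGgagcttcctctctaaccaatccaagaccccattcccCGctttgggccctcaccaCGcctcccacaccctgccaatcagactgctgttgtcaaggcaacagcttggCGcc
Dlk1: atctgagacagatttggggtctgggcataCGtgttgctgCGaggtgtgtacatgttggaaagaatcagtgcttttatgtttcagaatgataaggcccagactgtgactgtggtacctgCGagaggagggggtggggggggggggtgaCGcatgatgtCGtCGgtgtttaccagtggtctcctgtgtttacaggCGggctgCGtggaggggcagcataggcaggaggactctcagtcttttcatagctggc
Dio3: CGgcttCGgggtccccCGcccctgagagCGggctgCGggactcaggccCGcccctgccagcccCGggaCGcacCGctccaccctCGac
Mest: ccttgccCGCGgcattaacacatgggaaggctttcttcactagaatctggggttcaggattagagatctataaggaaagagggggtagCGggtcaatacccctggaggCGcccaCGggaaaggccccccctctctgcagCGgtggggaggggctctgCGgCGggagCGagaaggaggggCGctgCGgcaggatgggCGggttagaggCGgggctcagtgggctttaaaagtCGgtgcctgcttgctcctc

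The stretches hold 5 CG in the 146 bases between Peg3 and Usp29, 8 in the 250 bases before Dlk1, 10 in the 88 bases before Dio3 and 14 in the 250 bases before Mest. RefSeq windows of 300 bases around gene starts were at hand for 33 of the 42 genes, as 51 windows, with a median of 14 CG against a median of 7 over all 32851 windows. The letters TGCCGC, searched on both strands as the hexamer bound by the imprint-protecting zinc finger protein ZFP57, occurred in 13 of the 51 windows (25.5%) and in 11.6% of all windows. The Mest stretch holds 2 such matches and the others none. TGCCGC itself holds a CG, and its share was not compared at equal CG content. Some windows overlap, such as those of Mest that start at chr6:30737800 and chr6:30737803, and both are counted. These matches describe the letters only, and no binding or methylation was measured.

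Imprinted genes differed widely in level. Values are CPM after TMM scaling (trimmed mean of M values) of the libraries, and the order of levels between genes is given per kilobase (kb) of exon. The length is that of all annotated exons of a gene merged, such as 1829 bases for Nnat, 11186 for Gnas and 18089 for Meg3. A gene whose RNA holds only part of these exons is placed too low, so the order depends on the annotation. Nnat, which encodes the membrane proteolipid neuronatin, was highest at a mean of 3069 CPM per kb, followed by Ndn, which encodes the growth-restraining nuclear protein necdin, at 725 CPM per kb, and Snrpn, which encodes a spliceosome protein, at 252 CPM per kb. Nap1l5, Gnas, Cdkn1c, Blcap and Meg3 came next, between 67.1 and 100 CPM per kb, and the order among neighbours such as Blcap and Meg3 lies within their spread over libraries. Before division by length, 29 of the 42 genes had a mean of at least 10 CPM, 10 of at least 100 CPM and 4 of at least 1000 CPM, which describes the reads behind a value and not the order of the genes.

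**Figure D1:**
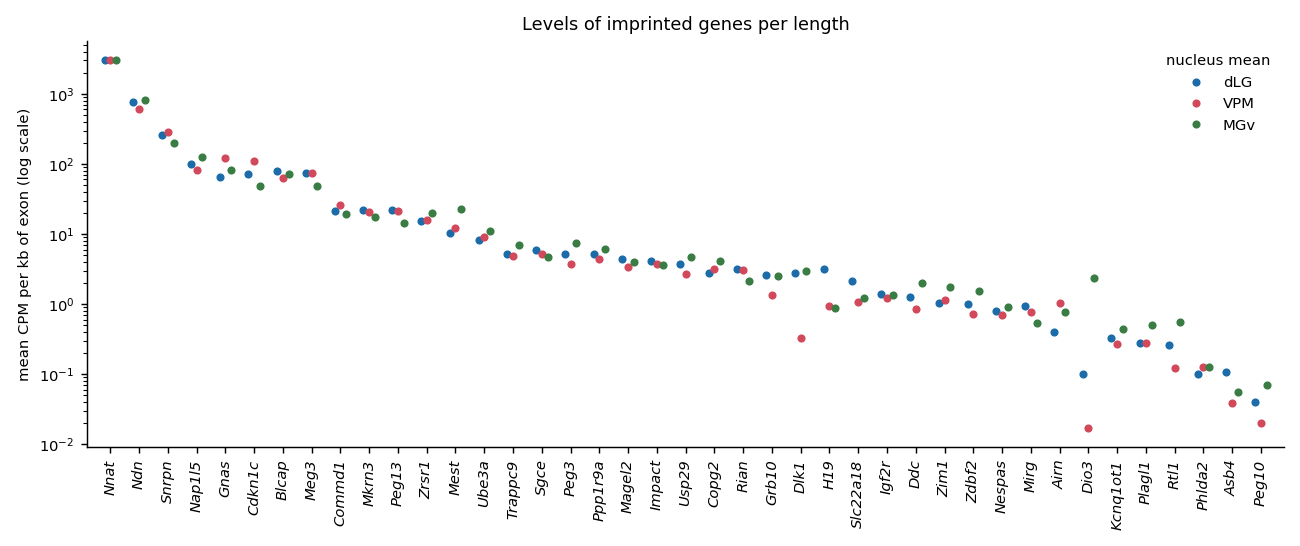
Mean CPM per kb of exon (log scale) of 41 imprinted genes, ordered by level, with a point for the mean of dLG (blue, 4 libraries), VPM (red, 4) and MGv (green, 3); Igf2, at 0 in every library, is not drawn. Nnat stands highest at 3069 CPM per kb, and the points of Dlk1 and Dio3 lie farthest apart between nuclei.

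At the other end, Igf2, which encodes the fetal growth factor IGF2, had 0 counts in all 11 libraries. For reads that the counting could give to Igf2, this allows up to 0.127 CPM in the deepest library. In the annotation 64.5% of its exonic bases lie in exons of the genes Gm49394 and Igf2os, and how the counting treated reads shared by such exons was not stated, so what part this had in the 0 counts was not tested. The retrotransposon-derived placental gene Peg10 had 46 counts over all libraries and the ankyrin repeat gene Asb4, which is abundant in hypothalamus, had 55. Phlda2, which restrains placental growth, had 25 counts. These 4 genes were too low to be tested, and 38 of the 42 passed the filter on low counts. Dio3 passed that filter through its MGv libraries alone, so its calls against MGv had to be differences and are given below as a description.

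A gene was called as differing between nuclei when the edgeR quasi-likelihood test over all 15907 genes kept gave a Benjamini-Hochberg adjusted p under 0.1. Between dLG and VPM, 7 imprinted genes were called, 5 higher in dLG and 2 higher in VPM, where 10.7% of all genes tested were called (4.97% towards dLG and 5.74% towards VPM). Between dLG and MGv, 8 were called, 3 higher in dLG and 5 higher in MGv, against 16.1% of all genes (8.61% and 7.49%). Between VPM and MGv, 17 were called, 3 higher in VPM and 14 higher in MGv, against 19.0% of all genes (10.4% and 8.56%). As shares of the 38 genes tested, these counts are 18.4%, 21.1% and 44.7%, of which the last lies farthest above its background. Without Dio3 the last 2 comparisons have 7 and 16 calls among 37 genes, of which 4 and 13 are higher in MGv. In bulk RNA, fewer cells of a type and less RNA per cell cannot be told apart.

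The median log2 fold change of the 38 genes was 0.20 for dLG against VPM, -0.14 for dLG against MGv and -0.30 for VPM against MGv, beside 0.0048, 0.015 and 0.022 over all genes. The median absolute log2 fold change was 0.25, 0.41 and 0.51, beside 0.27, 0.32 and 0.36. Without Dio3 the medians were 0.19, -0.10 and -0.30, and the absolute medians stayed at 0.25, 0.41 and 0.51. Altogether 21 of the 38 genes were called in at least 1 comparison, 10 of them in 1 and 11 in 2, and none in all 3, while 28.3% of all genes were called in at least 1. Of these 21 genes, 14 had their highest mean in MGv, 4 in VPM and 3 in dLG, and 12 had their lowest mean in VPM. By parental copy, 11 of 21 paternally expressed genes, 3 of 9 maternally expressed genes and 3 of 8 tissue-dependent genes were called between VPM and MGv. These shares are 52.4%, 33.3% and 37.5%, beside 19.0% of all genes, and a difference between these small groups was not tested. Dio3, whose calls followed from the filter, is counted among the genes called, those highest in MGv, those lowest in VPM and the paternally expressed genes called. The comparisons share libraries and are given side by side, not as separate evidence.

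Calls depended in part on single libraries. The 7 genes called between dLG and VPM became 3 without dLG replicate 1 and 4 without VPM replicate 1. The 8 called between dLG and MGv became 5 without dLG replicate 1, 3 or 4, VPM replicate 2 or MGv replicate 3. The 17 called between VPM and MGv stayed between 12 and 16 when any library was left out, and the 3 comparisons gave 9, 11 and 16 genes without the trio low in Hspa8. Without a filter on low counts, dLG and MGv differed in 7 genes, and the split turned from 3 towards dLG and 5 towards MGv to 5 towards dLG and 2 towards MGv. VPM replicate 3, a library of the trio, had the lowest value of all libraries for 11 of the 38 genes. A list of 9 genes that respond to dissociation, all above 1 CPM in at least 1 library, summed to 282 to 381 CPM in VPM, 479 to 735 CPM in dLG and 612 to 832 CPM in MGv, without overlap between VPM and the other nuclei, and its part in the lower VPM levels was not tested.

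Some single markers also set MGv apart. Gbx2, the thalamic gene that drives the reporter, was at 272 to 333 CPM in MGv against 14.2 to 51.6 CPM in dLG and 27.3 to 45.7 CPM in VPM. Of the same thalamic list, Tcf7l2 and Lhx2 were also higher in MGv than in all other libraries, but Lef1 and Prox1 were lower. Rora, Slc17a6 and Ntng1 of MGv overlapped with another nucleus. The thalamic list as a whole summed to 3358 to 3969 CPM in dLG, 2619 to 3410 CPM in VPM and 3435 to 3646 CPM in MGv, so MGv and dLG overlapped. Slc1a3, a glutamate transporter gene of astrocytes and progenitors, was at 45.5 to 90.3 CPM in MGv against 1.10 to 17.9 CPM in dLG and 3.23 to 10.3 CPM in VPM. The astrocyte list as a whole overlapped between nuclei, at 57.0 to 140 CPM in dLG, 86.8 to 151 CPM in VPM and 76.2 to 192 CPM in MGv, and 6 of its 7 genes exceeded 1 CPM in at least 1 library. The habenula list, of which 2 of 4 genes exceeded 1 CPM, summed to 15.3 to 18.05 CPM in dLG, 38.4 to 69.0 CPM in VPM and 46.3 to 99.1 CPM in MGv, mostly as Nwd2. The part of these differences in those of the imprinted genes was not tested.

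**Figure D2:**
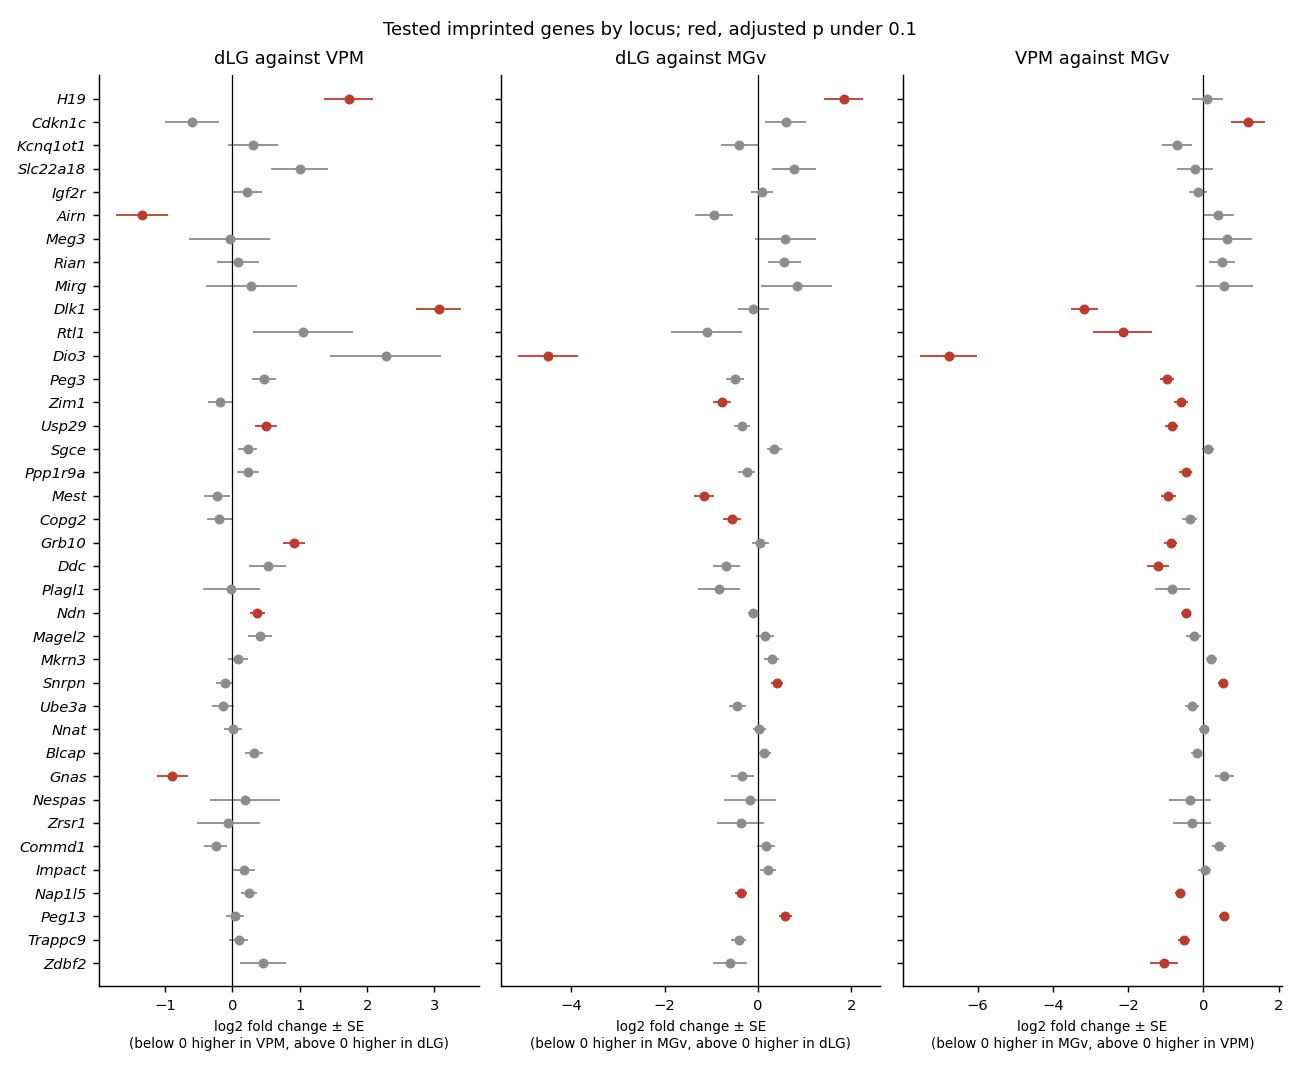
Log2 fold change with its standard error for the 38 tested imprinted genes in each comparison, ordered by locus, with red points for an adjusted p under 0.1. The red points of VPM against MGv lie mostly below 0, the side of higher levels in MGv, for 14 of 17 genes, Dio3 among them.

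Dlk1 had the largest log2 fold change of the tested imprinted genes other than Dio3. Both lie in the Dlk1-Dio3 locus on chromosome 12, where 3 protein-coding genes are paternally expressed and a string of non-coding RNAs is maternally expressed. Dlk1 (chr12:109452823-109463336) encodes a membrane protein related to the ligands of Notch that holds cells back from differentiating. Dlk1 was at 9.86, 16.4, 16.2 and 20.7 CPM in dLG replicates 1 to 4, at 1.48, 1.601, 1.18 and 3.23 CPM in VPM replicates 1 to 4, and at 22.8, 13.7 and 14.2 CPM in MGv replicates 1 to 3. All VPM libraries lay below all others, while dLG and MGv overlapped. Its log2 fold change was 3.06 ± 0.34 (SE) for dLG against VPM (edgeR adjusted p = 7.04e-05) and -3.16 ± 0.35 for VPM against MGv (edgeR adjusted p = 5.55e-05). For dLG against MGv it was -0.10 (edgeR adjusted p = 0.897).

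Dio3 (chr12:110279068-110281097), at the far end of the locus, encodes the deiodinase that inactivates thyroid hormone. It had 103, 31 and 38 counts in MGv replicates 1 to 3, against 3, 6, 5 and 2 counts in dLG and 2, 1, 0 and 0 counts in VPM replicates 1 to 4. As CPM this was 7.74, 2.72 and 3.69 in MGv and at most 0.272 in any library of the other nuclei, so MGv did not overlap with either. Relative to total counts, Dio3 was 23.7-fold higher in MGv than in dLG (exact 95% counting interval 14.2 to 42.4) and 140-fold higher than in VPM (47.0 to 684), and these intervals cover counting error only. The fitted log2 fold changes for dLG and VPM against MGv, -4.50 and -6.78, depend on the prior count because VPM had 3 counts in all. As Dio3 was kept for testing only because it was high in MGv, its difference is given as a description, with no p.

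Rtl1, a retrotransposon-derived gene best known from placenta, is read opposite to the maternal RNAs of the locus. It was low, at 0.773 to 3.53 CPM in dLG, 0.186 to 2.04 CPM in VPM and 1.40 to 5.93 CPM in MGv. The MGv and VPM ranges overlapped. Its call for VPM against MGv (log2 fold change -2.15 ± 0.79, edgeR adjusted p = 0.0906) was lost without dLG replicate 1, VPM replicate 1, 2 or 3, or MGv replicate 1 or 3, with an adjusted p of up to 0.321, and without the trio low in Hspa8 (adjusted p = 0.194).

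**Figure D3:**
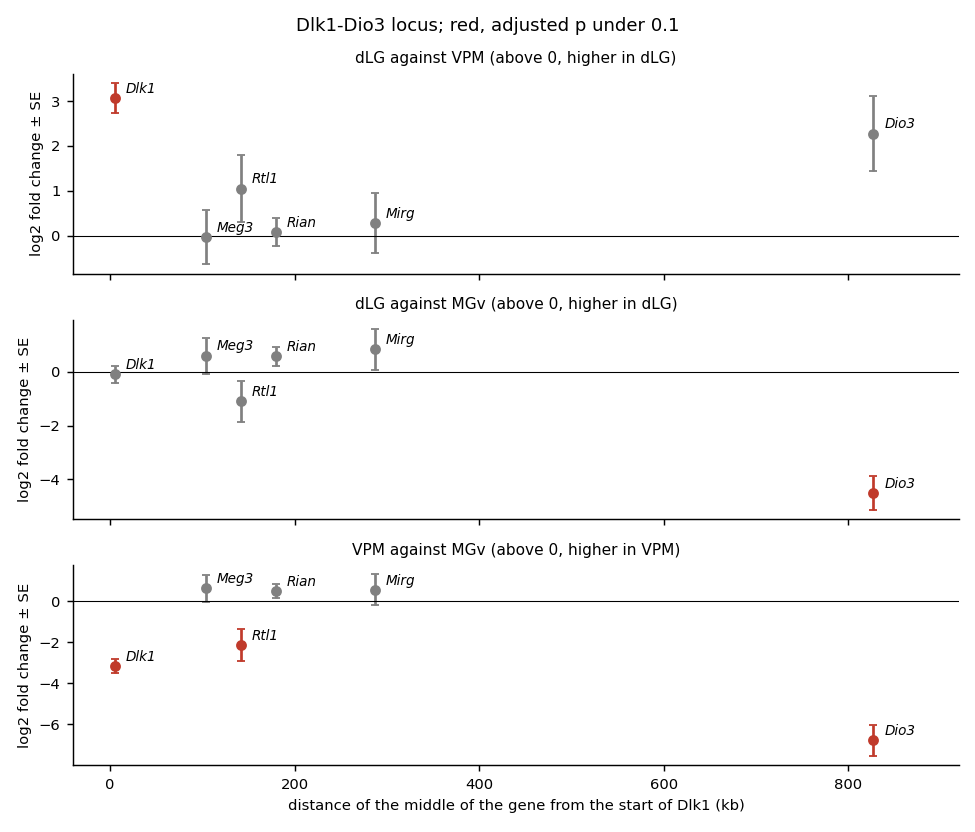
Log2 fold change with its standard error for the 6 genes of the Dlk1-Dio3 locus against the distance of the middle of each gene from the start of Dlk1 in kb, in 3 panels, 1 for each comparison, with red points for an adjusted p under 0.1. Dlk1 stands near 3 and -3 in both comparisons with VPM but at -0.10 for dLG against MGv, where Dio3, kept for testing by its MGv counts, is at -4.50; the non-coding Meg3, Rian and Mirg have no red point.

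The maternally expressed RNAs of the same locus varied among libraries of a nucleus and were called in no comparison. Meg3, a long non-coding RNA kept in the nucleus, was at 1428, 285, 1001 and 2572 CPM in dLG replicates 1 to 4, at 885, 482, 654 and 3413 CPM in VPM replicates 1 to 4 and at 846, 1032 and 756 CPM in MGv replicates 1 to 3. Its highest level was 9.01 times its lowest within dLG and 7.08 times within VPM, but 1.37 times within MGv. Rian, host of small nucleolar RNAs, ranged from 32.4 to 96.6 CPM over all libraries, and Mirg, host of microRNAs, from 1.12 to 14.3 CPM. Both were highest in VPM replicate 4 and next in dLG replicate 4. The edgeR test gave adjusted p of 0.984, 0.651 and 0.590 for Meg3 between dLG and VPM, dLG and MGv, and VPM and MGv.

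Malat1 and Miat, nuclear non-coding RNAs that are not imprinted, were looked at after these values were seen. Malat1 ranged from 1212 CPM in dLG replicate 2 to 9475 CPM in dLG replicate 4 and was highest, at 14504 CPM, in VPM replicate 4. Miat ranged from 12.3 to 98.8 CPM, with its lowest and highest values in the same libraries as Malat1. Meg3 lay 1.83 below its dLG mean in dLG replicate 2 and 1.79 above its VPM mean in VPM replicate 4 on the log2 scale, where Malat1 lay 1.66 below and 1.74 above. What part nuclear RNA had in the spread of Meg3 was not tested.

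**Figure D4:**
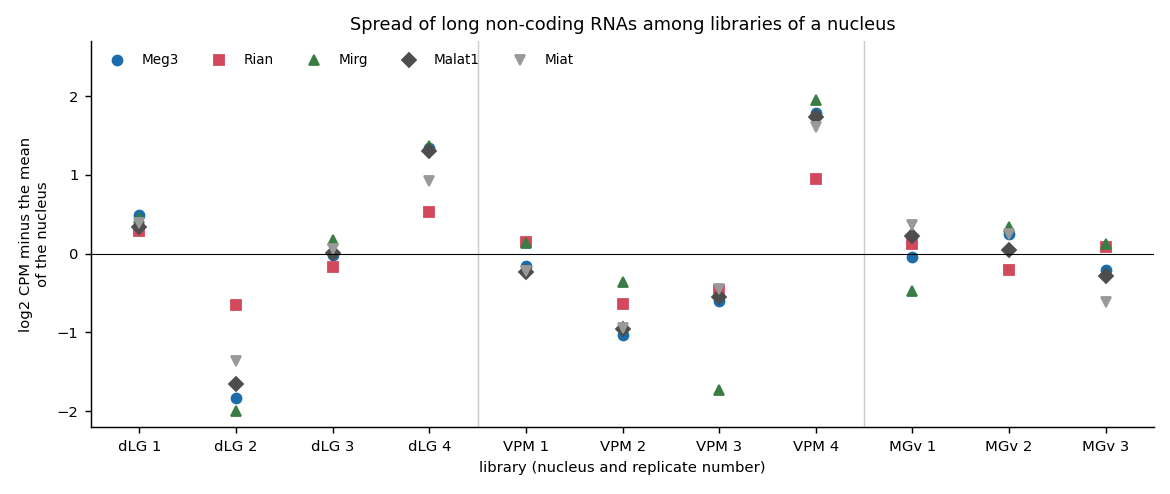
Log2 CPM minus the mean of the nucleus for the imprinted RNAs Meg3, Rian and Mirg and the non-imprinted RNAs Malat1 and Miat in each of the 11 libraries, with grey lines between nuclei. All 5 RNAs lie below their mean in dLG replicate 2 and above it in dLG replicate 4 and VPM replicate 4, and the MGv libraries stay closer together.

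All 3 genes of the Peg3 locus on chromosome 7 were lower in VPM than in MGv. Peg3 (chr7:6703892-6730431), a zinc finger protein tied to growth and maternal behaviour, was at 63.1, 81.4, 53.8 and 79.5 CPM in dLG replicates 1 to 4, at 53.5, 51.3, 39.4 and 56.7 CPM in VPM and at 111, 75.0 and 106 CPM in MGv. The VPM and MGv libraries did not overlap, and dLG lay between them and overlapped with both. The log2 fold change for VPM against MGv was -0.96 ± 0.19 (edgeR adjusted p = 0.00446), and neither comparison with dLG was called (adjusted p = 0.140 against VPM and 0.120 against MGv). However, dLG against MGv was called for Peg3 with DESeq2 (adjusted p = 0.0742), with limma voom and without dLG replicate 2, VPM replicate 3 or MGv replicate 2. For dLG against VPM it was called with limma voom and without dLG replicate 3. Usp29 (chr7:6730578-6967219), a ubiquitin protease gene that starts back to back with Peg3, followed it, with 78.1, 61.6, 61.2 and 68.1 CPM in dLG, 50.6, 53.6, 40.3 and 46.5 CPM in VPM and 69.1, 76.0 and 111 CPM in MGv. All VPM libraries of Usp29 lay below all others.

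For Usp29 the log2 fold change was -0.84 ± 0.17 for VPM against MGv (edgeR adjusted p = 0.00626) and 0.49 ± 0.16 for dLG against VPM (edgeR adjusted p = 0.0912). The latter call was kept only when dLG replicate 2, MGv replicate 1 or MGv replicate 3 was the library left out, and reached an adjusted p of 0.253 otherwise. Zim1 (chr7:6671269-6696450), a zinc finger gene of the same locus that is maternally expressed, also stood highest in MGv. It was at 7.79, 9.75, 7.52 and 7.92 CPM in dLG, 10.6, 9.56, 8.99 and 8.37 CPM in VPM and 15.6, 13.5 and 13.02 CPM in MGv, and all MGv libraries lay above all others. Its log2 fold change was -0.77 ± 0.19 for dLG against MGv (edgeR adjusted p = 0.0159) and -0.58 ± 0.19 for VPM against MGv (edgeR adjusted p = 0.0578). The second of these was lost without VPM replicate 2 or 4 or MGv replicate 1 or 2, with an adjusted p of up to 0.193, and without the trio low in Hspa8 (adjusted p = 0.139).

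Mest (chr6:30723547-30748465), a paternally expressed gene for a hydrolase-like protein of growing tissues, was about as distinct in MGv. Its levels were 42.3, 39.8, 42.4 and 37.2 CPM in dLG replicates 1 to 4, 67.2, 53.3, 34.4 and 34.7 CPM in VPM replicates 1 to 4 and 96.1, 88.5 and 85.9 CPM in MGv replicates 1 to 3. All MGv libraries lay above all others, and VPM spanned the dLG values. Fitted log2 fold changes were -1.16 ± 0.21 for dLG against MGv (edgeR adjusted p = 0.00203) and -0.93 ± 0.21 for VPM against MGv (edgeR adjusted p = 0.00913). Copg2, its neighbour on the other strand, encodes a coat protein of transport vesicles. It was at 14.003, 17.96, 11.1 and 13.6 CPM in dLG, 18.1, 15.8, 13.8 and 17.2 CPM in VPM and 24.5, 19.6 and 18.7 CPM in MGv, where all libraries lay above all others. The call for dLG against MGv (-0.56 ± 0.20, edgeR adjusted p = 0.0895) was lost when any library other than dLG replicate 2 or VPM replicate 3 was left out, with an adjusted p of up to 0.291. Exons of Mest and Copg2 overlap over 23.1% of Mest and 17.8% of Copg2, and reads there cannot be given to a strand with a kit that does not mark it.

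Grb10 and Ddc are neighbours on chromosome 11 and were both lower in VPM than in MGv. Grb10 (chr11:11930508-12038683) encodes an adaptor that dampens signalling from insulin and IGF receptors. It was at 22.2, 26.5, 22.4 and 22.2 CPM in dLG, 11.0, 15.4, 11.2 and 11.8 CPM in VPM and 25.0, 19.8 and 22.7 CPM in MGv. All VPM libraries lay below all others, and dLG and MGv overlapped. Its log2 fold change was 0.92 ± 0.17 for dLG against VPM (edgeR adjusted p = 0.00355) and -0.87 ± 0.18 for VPM against MGv (edgeR adjusted p = 0.00554). Ddc, which encodes the decarboxylase that makes dopamine and serotonin, was low, at 4.55 to 6.27 CPM in dLG, 2.90 to 5.40 CPM in VPM and 5.86 to 11.3 CPM in MGv, and was called only for VPM against MGv (-1.21 ± 0.29, edgeR adjusted p = 0.0151). Without the trio low in Hspa8, Ddc was also called for dLG against VPM (0.81, edgeR adjusted p = 0.0470) and for dLG against MGv (-0.84, edgeR adjusted p = 0.0477).

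**Figure D5:**
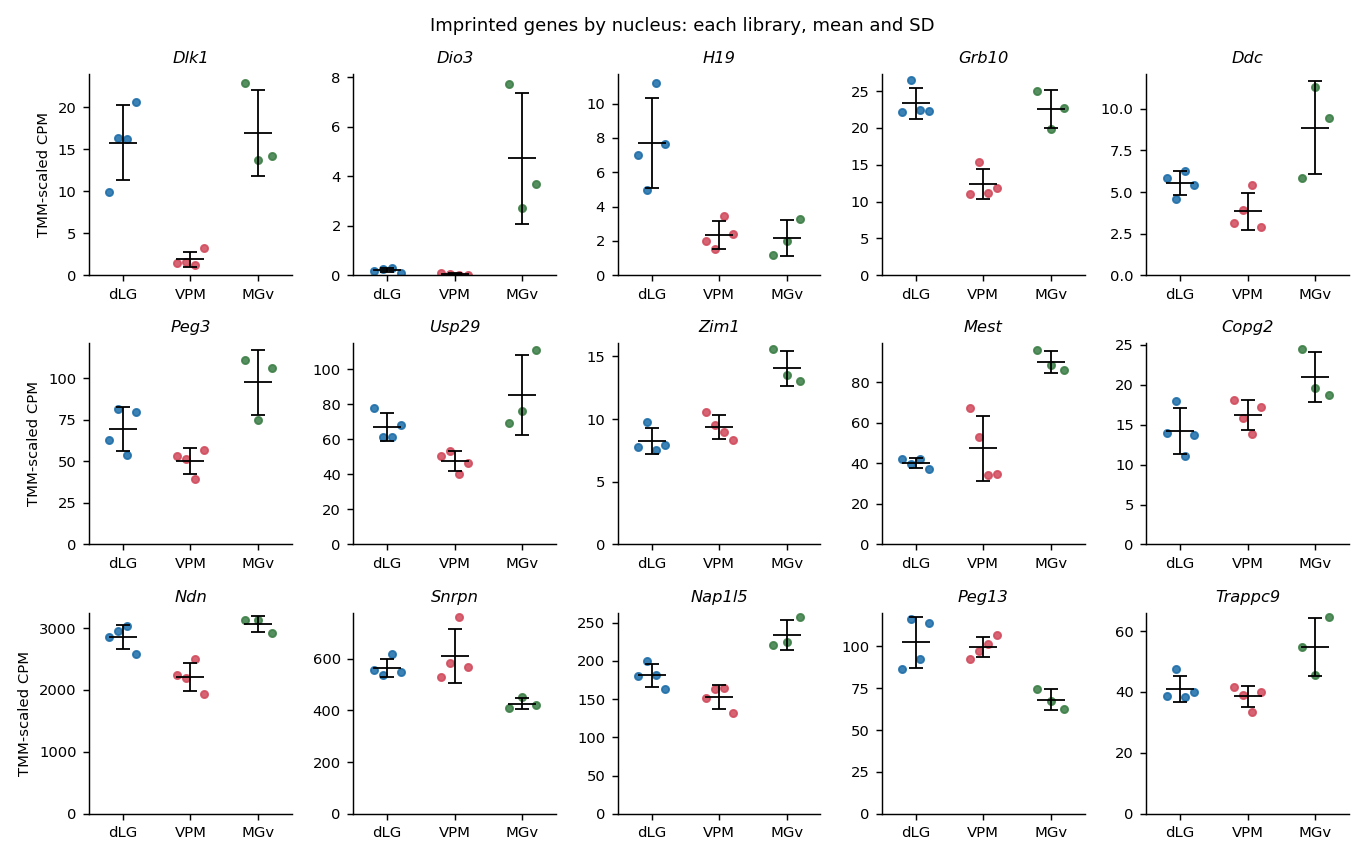
TMM-scaled CPM of 15 imprinted genes in each library (points), with the mean (long bar) and SD (error bars) of dLG (4 libraries), VPM (4) and MGv (3); each panel starts at 0 and has its own scale. VPM lies below the other nuclei for Dlk1, Usp29, Grb10 and Ndn, and MGv lies above them for Dio3, Zim1, Mest, Copg2 and Nap1l5.

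At the locus of H19 and Igf2 on chromosome 7, counts were given to H19, a maternally expressed non-coding RNA of the fetus, and none to Igf2. H19 was at 4.98 to 11.2 CPM in dLG, 1.51 to 3.47 CPM in VPM and 1.20 to 3.30 CPM in MGv. All dLG libraries lay above all others, with log2 fold changes of 1.73 ± 0.37 against VPM (edgeR adjusted p = 0.00998) and 1.84 ± 0.42 against MGv (edgeR adjusted p = 0.00992). H19 was the only gene of the 42 called as higher in dLG than in both other nuclei. Its highest value was in dLG replicate 3, in which 5 haemoglobin and other blood genes summed to 514 CPM, against at most 11.7 CPM in the other libraries. Without that library the log2 fold changes were 1.49 against VPM (edgeR adjusted p = 0.0391) and 1.598 against MGv (edgeR adjusted p = 0.0327).

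In the neighbouring Kcnq1 locus, Cdkn1c (chr7:143458339-143461050), which encodes the cell cycle inhibitor p57, was variable in every nucleus. It was at 73.5, 162, 96.4 and 262 CPM in dLG, 226, 194, 124 and 354 CPM in VPM and 117, 49.1 and 129 CPM in MGv, so that VPM and MGv overlapped. The call for VPM against MGv (1.19 ± 0.45, edgeR adjusted p = 0.0989) was kept only without dLG replicate 1, dLG replicate 4 or VPM replicate 3, and reached 0.267 when another library was left out. Exons of another gene on the opposite strand cover 30.7% of Cdkn1c. The non-coding Kcnq1ot1 ranged from 12.6 to 48.4 CPM and the transporter gene Slc22a18 from 0.527 to 4.87 CPM, and neither was called. Without the trio low in Hspa8, Kcnq1ot1 was called as higher in dLG than in VPM (log2 fold change 0.86, edgeR adjusted p = 0.0927).

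Igf2r and its antisense RNA Airn on chromosome 17 were read at low levels. Igf2r, which encodes the receptor that removes IGF2, was at 6.45 to 15.5 CPM and was called in no comparison. Airn, which silences the paternal copy of Igf2r outside neurons, was at 0.599 to 2.02 CPM in dLG, 2.77 to 4.65 CPM in VPM and 2.04 to 3.42 CPM in MGv. The log2 fold change of Airn for dLG against VPM was -1.34 ± 0.38 (edgeR adjusted p = 0.0480), and the call was lost without dLG replicate 1 or VPM replicate 1, with an adjusted p of up to 0.125. Since Airn runs through Igf2r on the other strand, reads from introns of one cannot be told from the other without strand.

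In the Snrpn-Ube3a locus on chromosome 7, the region lost in Prader-Willi and Angelman syndromes in people, Ndn and Snrpn differed between nuclei in opposite directions. Ndn (chr7:62346569-62350262) was at 2857, 2949, 3033 and 2576 CPM in dLG replicates 1 to 4, at 2239, 2187, 2492 and 1932 CPM in VPM and at 3136, 3134 and 2924 CPM in MGv. All VPM libraries lay below all others. The log2 fold change was -0.47 ± 0.12 for VPM against MGv (edgeR adjusted p = 0.0186) and 0.37 ± 0.11 for dLG against VPM (edgeR adjusted p = 0.0612), of which the latter was lost without dLG replicate 1, 2 or 3 or VPM replicate 1, 2 or 4 (adjusted p of up to 0.162).

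Snrpn (chr7:59982495-60140219) was at 555, 537, 618 and 549 CPM in dLG, 529, 584, 761 and 568 CPM in VPM and 408, 450 and 421 CPM in MGv. All MGv libraries lay below all others. Fitted log2 fold changes were 0.52 ± 0.14 for VPM against MGv (edgeR adjusted p = 0.0239) and 0.41 ± 0.14 for dLG against MGv (edgeR adjusted p = 0.0747), and the second was lost without dLG replicate 1, 3 or 4, VPM replicate 2 or any MGv library (adjusted p of up to 0.187). Exons of Snurf, Gm38393 and Gm18908 overlap 34.1% of Snrpn. Magel2, a regulator of protein recycling, was at 13.6 to 22.5 CPM, Mkrn3, a ubiquitin ligase that delays puberty, at 39.9 to 64.9 CPM, and Ube3a, the ubiquitin ligase lost in Angelman syndrome, at 141 to 280 CPM. None of these 3 was called, although all MGv libraries of Ube3a lay above all dLG libraries (edgeR adjusted p = 0.146).

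Nnat and Gnas on chromosome 2 differed in how even they were. Nnat was at 4721 to 6546 CPM over all libraries, with a mean of 5651 ± 627 CPM (SD, n = 4) in dLG, of 5629 ± 681 CPM (SD, n = 4) in VPM and of 5542 ± 712 CPM (SD, n = 3) in MGv. The log2 fold changes of Nnat were 0.0057, 0.028 and 0.022 with standard errors of 0.13 to 0.14 and were not called. Blcap, the gene in whose intron Nnat lies, was at 161 to 284 CPM and was not called. Gnas (chr2:174284320-174346744), which encodes the stimulatory G protein subunit that couples receptors to cyclic AMP, was at 546, 973, 559 and 870 CPM in dLG, 1662, 1181, 955 and 1666 CPM in VPM and 1179, 740 and 867 CPM in MGv. The dLG and VPM libraries overlapped, and the log2 fold change was -0.89 ± 0.23 (edgeR adjusted p = 0.0322). Without dLG replicate 1 it was -0.78 and the call was lost (adjusted p = 0.101). Gnas was not called for VPM against MGv (edgeR adjusted p = 0.172), but without the trio low in Hspa8 it was (0.89, edgeR adjusted p = 0.0278). Nespas, the antisense RNA of the locus, was at 0.773 to 4.10 CPM and was not called.

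Several imprinted genes sit inside an intron of a larger host, and here the small gene and its host did not always move together. Peg13, a paternally expressed non-coding RNA (chr15:72805600-72810324), lies within Trappc9 (chr15:72589620-73061204), which encodes a subunit of a vesicle tethering complex. Peg13 was at 86.5, 116, 92.5 and 114 CPM in dLG, 92.6, 97.4, 102 and 107 CPM in VPM and 74.7, 67.4 and 62.6 CPM in MGv, and all MGv libraries lay below all others. Its log2 fold change was 0.59 ± 0.14 for dLG against MGv (edgeR adjusted p = 0.0143) and 0.55 ± 0.14 for VPM against MGv (edgeR adjusted p = 0.0211). Trappc9 went the other way, with 38.6, 47.4, 38.4 and 40.0 CPM in dLG, 41.8, 38.9, 33.5 and 39.9 CPM in VPM and 54.6, 45.5 and 64.5 CPM in MGv.

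For Trappc9 all MGv libraries lay above all VPM libraries (-0.51 ± 0.15 for VPM against MGv, edgeR adjusted p = 0.0436), and the call was lost without MGv replicate 1 or 3, with an adjusted p of up to 0.205. For dLG against MGv Trappc9 was not called (edgeR adjusted p = 0.104), but without the trio low in Hspa8 it was (-0.51, edgeR adjusted p = 0.0596). DESeq2 on all libraries also called it (adjusted p = 0.0467). Nap1l5 (chr6:58905233-58907076), a paternally expressed nucleosome assembly protein gene, lies within an intron of Herc3, a ubiquitin ligase gene. Nap1l5 was at 179, 200, 181 and 163 CPM in dLG, 151, 164, 165 and 132 CPM in VPM and 220, 225 and 257 CPM in MGv, and all MGv libraries lay above all others. Its log2 fold change was -0.61 ± 0.13 for VPM against MGv (edgeR adjusted p = 0.00583) and -0.37 ± 0.13 for dLG against MGv (edgeR adjusted p = 0.0793). The second call was kept only without dLG replicate 2, VPM replicate 3 or VPM replicate 4 and reached 0.253 otherwise. Herc3, which is not among the 42 genes, was at 58.2 to 106 CPM in VPM and at 9.69 to 15.9 CPM in MGv, the opposite order (2.76 ± 0.32 for VPM against MGv, edgeR adjusted p = 7.00e-05).

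Zrsr1, a splicing factor copy inside an intron of Commd1, was among the most variable within a nucleus. It ranged from 21.1 to 118 CPM in dLG, 44.1 to 109 CPM in VPM and 30.8 to 141 CPM in MGv, while its host Commd1, which acts in copper handling, kept to 91.6 to 188 CPM over all libraries. Neither was called.

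Of the remaining genes, 2 were called for VPM against MGv. Zdbf2, a paternally expressed zinc finger gene tied to newborn feeding, was at 9.56, 12.9, 13.3 and 14.7 CPM in dLG, 13.997, 12.1, 3.04 and 7.56 CPM in VPM and 16.9, 16.3 and 24.3 CPM in MGv. All MGv libraries lay above all others, and the call (-1.06 ± 0.37, edgeR adjusted p = 0.0812) was lost without VPM replicate 4 or any MGv library, with an adjusted p of up to 0.272. Ppp1r9a, which encodes the actin-binding synaptic protein neurabin, was at 75.2, 78.8, 63.6 and 82.6 CPM in dLG, 71.9, 66.0, 60.2 and 58.1 CPM in VPM and 71.5, 75.7 and 120 CPM in MGv. Its VPM and MGv libraries overlapped, and the call (-0.47 ± 0.18, edgeR adjusted p = 0.0993) was kept only without MGv replicate 1 or 2 and reached 0.498 otherwise. Sgce, a sarcoglycan of the same locus, was at 40.7 to 75.7 CPM, Plagl1, a zinc finger regulator of other imprinted genes, at 1.19 to 4.51 CPM, and Impact, a regulator of translation, at 14.2 to 23.6 CPM. These 3 genes were called in no comparison, although without the trio low in Hspa8 Plagl1 was called as lower in dLG than in MGv (-1.41, edgeR adjusted p = 0.0406).

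Other genes of the same kind were counted for comparison. Of 41 further imprinted genes, 25 were tested and 3 differed between dLG and VPM, while 2 passed for dLG against MGv and 4 for VPM against MGv. These shares of 12%, 8% and 16% lie near or below the 10.7%, 16.1% and 19.0% of all genes. Besides Herc3, Rasgrf1, a paternally expressed activator of Ras, was lower in VPM, at 4.33 to 8.001 CPM against 18.7 to 28.3 CPM in dLG (log2 fold change 1.94 ± 0.26 for dLG against VPM, edgeR adjusted p = 0.000357) and 12.6 to 22.01 CPM in MGv. Bcl2l1, which protects cells from death, was at 51.5 to 93.2 CPM in VPM and 97.4 to 109 CPM in MGv (-0.45 ± 0.17, edgeR adjusted p = 0.0980).

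Of 22 genes that set or keep imprints, 20 were tested and 3, 3 and 8 were called in the comparisons in the same order. These shares are 15%, 15% and 40%, beside 10.7%, 16.1% and 19.0% of all genes, so that the first and second lie near the background. All 8 called for VPM against MGv were higher in MGv, the direction of 8.56% of all genes. They included Dnmt1, the methyltransferase that copies methylation at replication (-0.68 ± 0.17, edgeR adjusted p = 0.0196), Tet3, which oxidises methylated cytosine (-0.81 ± 0.19, edgeR adjusted p = 0.0130), and the Polycomb methyltransferase Ezh2 (-0.57 ± 0.21, edgeR adjusted p = 0.0856). The median log2 fold change of the 20 genes for VPM against MGv was -0.37, beside 0.022 over all genes.

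Of 22 genes of the IGF pathway on which Igf2, Igf2r and Grb10 act, 19 were tested and 7, 8 and 8 were called in that order, and 7 of the 8 called for VPM against MGv were higher in VPM, the direction of 10.4% of all genes. These shares are 36.8%, 42.1% and 42.1%, beside 10.7%, 16.1% and 19.0% of all genes. Igf1, the sister of Igf2, was at 0.334 to 1.10 CPM in dLG, 13.9 to 64.2 CPM in VPM and 3.95 to 38.1 CPM in MGv (log2 fold change -5.64 ± 0.79 for dLG against VPM, edgeR adjusted p = 0.000541). Igfbp5, a binding protein that holds IGFs outside the cell, was also higher in VPM than in dLG (-3.80 ± 0.31, edgeR adjusted p = 5.86e-06). Igfbpl1, a related secreted protein, was higher in dLG, at 17.1 to 29.6 CPM against 3.34 to 4.40 CPM in VPM (2.66 ± 0.22, edgeR adjusted p = 5.86e-06).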

How the data were processed

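Total RNA of sorted neurons was turned into libraries with the SMARTer Ultra Low kit, which does not mark strand, and sequenced as single reads of 50 bases. Per gene, the authors deposited raw read counts, made with Trim Galore 0.6.1, STAR 2.7.0d and featureCounts (Subread 1.6.4) on mouse build GRCm38. The strand setting, the handling of reads with several alignments and of reads in overlapping exons are not given in the sources used here.

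Sample titles gave the groups and the replicate numbers. Nothing says that libraries of a nucleus came from separate litters or days, so p-values measure the spread between these libraries. Most same-numbered libraries did not deviate together (10 pairs, r from -0.20 to 0.48, median -0.02), so no block entered the main test. The highest r was that of dLG replicate 4 with VPM replicate 4, at 0.48. In the trio low in Hspa8, r was 0.27 for dLG with VPM, 0.26 for dLG with MGv and 0.23 for VPM with MGv. Some libraries of different nuclei thus deviated together, while the main test treats all libraries as independent. Gene symbols and exons came from GENCODE M21, which matched 54723 of 54752 identifiers, including all 42 imprinted genes.

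Counts were tested with edgeR 4.0.16 (R 4.3.3), by filterByExpr, TMM scaling and the quasi-likelihood test on all 11 libraries with 3 group means, two-sided, and with adjustment by Benjamini-Hochberg across the 15907 genes kept of 33170 with a count and a threshold of 0.1, the threshold the study used with DESeq2. The common biological coefficient of variation was 28.2%. Standard errors were derived from each log2 fold change and its F statistic. The procedure was tested on simulated data. The members and gene lists were chosen with earlier results of these data known. Imprinted genes called in any comparison with a mean of at least 10 CPM are given in every library and the others by range or counts; of each other list, the 3 genes with the largest change among those called and of at least 10 CPM are named. Depth and floors of 3 counts cover counting error only, since amplified reads are not independent molecules. Alternatives were DESeq2 1.42.0, limma 3.58.1 with voom, DESeq2 size factors or total counts, other count filters, a replicate block and only the nuclei compared. Others were a threshold of 0.05, leaving out the trio low in Hspa8 and leaving out each library. Leaving out members mostly covered by other genes took away only Igf2, which was not tested, so it could change no call. Added once the data had been seen were edgeR's newer estimate of the spread and a covariate for the trio.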

Additional observations from a re-analysis of the deposited data

Results flagged for a closer look

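Within the nuclei of 4 libraries, 76 sets of values (38 imprinted genes in dLG and in VPM) were searched for a library far from the rest by Dixon's criterion at its 95% level, and 6 were found, where chance alone flags about 1 in 20 groups. In VPM replicate 4, Meg3 was at 3413 CPM against 482 to 885 CPM in the other VPM libraries, and Magel2 was at 17.6 CPM against 14.5 to 14.9 CPM. In VPM replicate 3, Igf2r was at 6.45 CPM against 12.5 to 12.98 CPM. In dLG replicate 2, Grb10 was at 26.5 CPM against 22.2 to 22.4 CPM in the other dLG libraries, and Plagl1 was at 4.51 CPM against 1.19 to 1.52 CPM. In dLG replicate 3, Mkrn3 was at 64.9 CPM against 51.4 to 52.9 CPM. VPM replicate 3 and dLG replicate 2 belong to the trio low in Hspa8. The 3 MGv libraries are too few for this criterion.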

How the results depend on the processing

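Of the 32 calls of an imprinted gene in a comparison, 18 were kept under every alternative that tested them. Whenever any library was left out, 19 were kept, and no value reversed its direction. Calls that the main test lacked were also gained, 14 with limma voom, 2 with DESeq2 and up to 4 with a library left out. All these counts include both Dio3 calls, which followed from the filter on low counts. Dio3 was not among the genes tested when at least 10 counts were required in every library. Between dLG and VPM the 7 imprinted genes became 15 with limma voom and 3 to 7 with a library left out, and the 1704 genes of the whole table became 4414 with limma voom, 2618 without the trio low in Hspa8 and 1093 to 2223 with a library left out. Between dLG and MGv the 8 imprinted genes became 5 at an adjusted p under 0.05 and 5 to 11 with a library left out, and the 2562 genes 1886 to 3300. Between VPM and MGv the 17 became 12 to 16 and the 3016 genes 2024 to 3235. With the replicate block, 6, 7 and 12 imprinted genes and 1464, 2169 and 2695 genes were called. With it, 8 of the 32 calls were lost and 1 was gained. Only 2 of the 10 same-numbered pairs of libraries had r over 0.1. Scaling by total counts put 61.1% of all dLG against VPM calls higher in dLG, against 46.4% with TMM, and moved the median by 0.095 (log2). Without a count filter the split between dLG and MGv turned from 3 higher in dLG and 5 higher in MGv to 5 and 2, and Meg3 was called as higher in dLG and in VPM than in MGv (adjusted p = 0.00695 and 0.00223). The causes of these shifts were not tested. Depth limits the low genes, above all Dio3, Rtl1 and the 4 untested ones.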
